A study of Cricetiscus sungorus with 216 samples.

Results

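Mediobasal hypothalamus (MBH) transcripts of male Djungarian hamsters were compared between animals at the end of the circannual interval, after 28 or 32 weeks of short photoperiod (SP), and animals that stayed in long photoperiod (LP). Members were chosen by label: 18 of the 54 MBH libraries, with 6 hamsters in LP, 6 after 28 weeks of SP and 6 after 32 weeks of SP (labelled LD, 28wk SD and 32wk SD in the deposit). The 12 SP libraries are called late SP, and the remaining MBH libraries, from 4 to 24 weeks of SP, entered the fits to estimate the spread. LP was 16 h of light a day, from the colony room, and SP was 8 h. All hamsters were unmanipulated adults with free access to food, came from one colony at 3 to 8 months of age, and were killed 2 to 4 h after lights on. The LP reference group was kept in LP throughout according to the study's methods, which leave the week of its collection unstated, so age and photoperiod history cannot be told apart in this contrast. Each library is the tissue punch of one hamster, read as nanopore cDNA and assigned to mouse transcripts.

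A hamster moved to SP loses body mass, turns white and regresses its gonads, and after months in the same SP it returns to the summer phenotype without any light cue, a state called photorefractoriness. The photoperiod message enters the MBH through the pars tuberalis, a thin sheet of endocrine cells under the median eminence that reads nocturnal melatonin and secretes thyrotropin in long days. Thyrotropin acts on tanycytes, the radial glia lining the third ventricle, which set local thyroid hormone through deiodinases and also carry much of the retinoid machinery of this region. The comparison asks which of these transcripts stay away from the LP level once SP has lasted long enough for the phenotype to revert.

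Depth was uneven. Summed counts ranged from 371980 to 3844612 in LP, from 665107 to 13208361 at 28 weeks and from 703313 to 3901635 at 32 weeks, so that 1 count was worth 0.177 to 1.34 CPM (normalised read counts, scaled to a common library size). One predicted gene, Gm32262, took 17.2% to 65.7% of the counts in LP and 12.7% to 58.2% in late SP, with medians of 48.85% and 23.15% (exact permutation test of the mean, two-sided p = 0.0803). These counts sum isoform rows, 26 of them for Gm32262, and can repeat a read, so the percentages are not shares of reads. The part of Gm32262 in the results was not tested beyond the alternatives given for it. All 20 MBH markers were read in LP and in late SP, with summed levels of 394 to 964 CPM in LP and 353 to 945 CPM in late SP. One library stood apart from the rest: 28 weeks replicate 2 had the fewest genes with counts (9220), and its pars distalis markers other than Cga summed to 668 CPM, against at most 60.5 CPM in the other late SP libraries and 5.97 to 230 CPM in LP.

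Across all genes, 3 of 20116 differed between late SP and LP at a false discovery rate (FDR) of 0.1 (edgeR quasi-likelihood test), which is 0.0149% of the genes tested. All of them were lower in late SP. They were Tshb, Upp2 and Nmu. Each is on the list of pars tuberalis genes, but Upp2 and Nmu were placed there with their earlier results in these data known. At an unadjusted p under 0.05 there were 331 higher and 627 lower genes, these 3 included. Each late group alone gave 1 call (0.00497% of the genes tested), Tshb both times, and no gene differed between 32 and 28 weeks of SP (838 genes at an unadjusted p under 0.05 in edgeR, and 0 calls also with edgeR 4, where 635 genes had such a p, and with DESeq2, where 262 had).

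Tshb, the beta subunit of thyrotropin, ranged from 104 to 693 CPM in LP with a median of 488 CPM. It ranged from 0 to 28.1 CPM at 28 weeks (median 15.2 CPM) and from 0 to 25.4 CPM at 32 weeks (median 9.86 CPM). Every late SP library lay below every LP library, and 2 of the 12 late SP libraries held no Tshb count. The mean was 438 ± 223 CPM in LP (SD, n = 6) and 12.3 ± 10.4 CPM in late SP (SD, n = 12). The log2 fold change was -5.20 (SE 0.69), with an adjusted p of 1.45e-05 in the edgeR test. It was -4.87 (SE 0.91, edgeR adjusted p = 0.0378) at 28 weeks and -5.54 (SE 0.94, edgeR adjusted p = 0.00605) at 32 weeks. The 7 Tshb isoforms held the same value, within 0.5 counts, in 10 of the 16 libraries with any count, so summed counts can repeat a read. The highest isoform alone had 43 to 171 counts in each LP library and 0 to 9 in each late SP library. In bulk tissue, fewer pars tuberalis cells in the punch and less RNA per cell cannot be told apart.

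Complete separation of this kind was seen in few genes, and among 20116 a few can separate by chance. The smallest p of a two-sided exact permutation test of 12 against 6 libraries is 0.000108. Of all 20116 genes, 2 had every late SP library below every LP library (0.00994%), Tshb and Rbp4, and none had every late SP library above. Both pass the filter on low counts, so they are 0.0217% of the 9221 genes that do.

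Cga encodes the alpha subunit with which the thyrotropin beta chain pairs, and it did not pass the FDR. It ranged from 365 to 1380 CPM in LP (median 867 CPM), from 38.2 to 830 CPM at 28 weeks and from 41.4 to 341 CPM at 32 weeks (median 116 CPM). The ranges met in 1 of 12 late SP libraries, 28 weeks replicate 2, the one with the high pars distalis markers; the part of those markers in its Cga level was not tested. The log2 fold change was -2.15 (SE 0.73, edgeR adjusted p = 0.64), and -2.51 without that library (edgeR adjusted p = 0.519). In an exact permutation test of mean CPM alone (two-sided, unadjusted, one of 130 genes so tested) p was 0.00302. Lhb, a gonadotropin beta subunit of the pars distalis, had a log2 fold change of -2.40 (SE 0.91, edgeR adjusted p = 0.779), with 205.2 CPM in LP replicate 3, and it was -0.43 without that library.

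Upp2 and Nmu rested on few reads. Upp2, a uridine phosphorylase, was read in 4 of 6 LP libraries, at 9.38 to 37.6 CPM, and in 4 of 12 late SP libraries, at no more than 3.63 CPM. Its log2 fold change was -4.95 (SE 0.90, edgeR adjusted p = 0.0397). Nmu, the peptide neuromedin U, was read in 4 of 6 LP libraries, at up to 6.37 CPM, in no library at 28 weeks and in 2 of 6 at 32 weeks, at 1 count each. Its log2 fold change was -4.46 (SE 0.85, edgeR adjusted p = 0.0397). For both genes 2 LP libraries had no count, so the groups overlapped at 0. Pooled over libraries, Nmu was 46.6-fold higher in LP than in late SP, with a 95% counting interval from 12.1 to 397.4, and Upp2 was 33.3-fold higher (17.6 to 70.8) from summed isoforms but 6.66-fold higher (2.02 to 28.3) from its highest isoform. These intervals cover counting error only. Both genes were removed by the filter on low counts of edgeR, and neither was called by DESeq2.

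**Figure D1:**
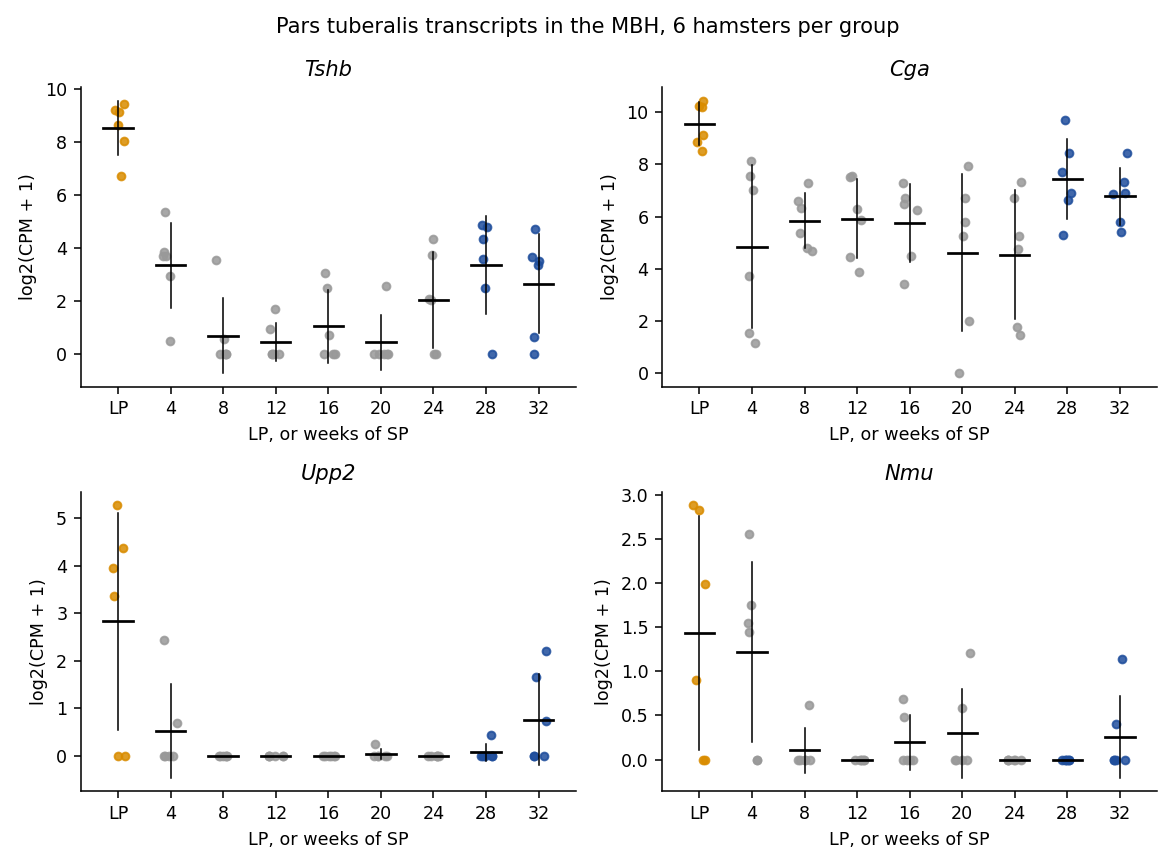
Levels of Tshb, Cga, Upp2 and Nmu in each MBH library, on a log2(CPM + 1) axis, for LP (orange), 4 to 24 weeks of SP (grey) and 28 and 32 weeks of SP (blue), with the mean and SD of each group of 6 hamsters. Tshb at 28 and 32 weeks sits between 0 and 28.1 CPM, below every LP library.

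None of the other pars tuberalis genes passed the FDR. All 14 members were counted, 7 of them passed the filter on low counts, and the median log2 fold change of those 7 was -0.20, against -0.02 over the 9221 genes that passed it. Eya3, a transcriptional coactivator that drives Tshb, had a log2 fold change of 0.52 (SE 0.69). The PAR-bZIP factors Tef and Hlf had -0.20 (SE 0.31) and -0.19 (SE 0.36). Tac1, the substance P precursor, had -0.33 (SE 0.32) and the granin Chga had 0.03 (SE 0.41). None of these 5 passed the FDR. Mtnr1a, the melatonin receptor through which the pars tuberalis reads day length, was read in 2 LP libraries and 1 late SP library and cannot be compared at this depth. Upp2 and Nmu were placed on this list with their earlier results in these data known, so their calls are no separate evidence about the list.

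Among genes that passed the filter on low counts, Rbp4 and Vim, of retinol transport and tanycytes, were also among the lower genes with the smallest p. Rbp4, a carrier of retinol, ranged from 35.7 to 48.6 CPM in LP with a median of 38.8 CPM. It ranged from 3.12 to 23.1 CPM at 28 weeks (median 11.2 CPM) and from 6.72 to 22.8 CPM at 32 weeks (median 12.5 CPM). The groups did not overlap. The means were 40.5 ± 4.93 CPM (SD, n = 6) and 13.5 ± 6.89 CPM (SD, n = 12), and the log2 fold change was -1.59 (SE 0.37). With summed isoforms Rbp4 did not pass the FDR in the edgeR test over all genes (adjusted p = 0.152). The exact permutation test of its mean CPM alone gave the smallest p that 12 against 6 allows (two-sided, unadjusted p = 0.000108, one of 130 genes so tested). Rbp4 was named for its small p in these same libraries, so the permutation p is no separate evidence.

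Vim, the intermediate filament of tanycytes and other glia, had means of 154 ± 60.5 CPM in LP (SD, n = 6) and 75.4 ± 26.7 CPM in late SP (SD, n = 12). Its groups overlapped, and its log2 fold change was -1.03 (SE 0.31, edgeR adjusted p = 0.482). Gpr50, an orphan relative of the melatonin receptors found in tanycytes, had means of 29.9 ± 12.4 and 13 ± 7.54 CPM in the same groups, which overlapped, and a log2 fold change of -1.21 (SE 0.55, edgeR adjusted p = 0.958).

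**Figure D2:**
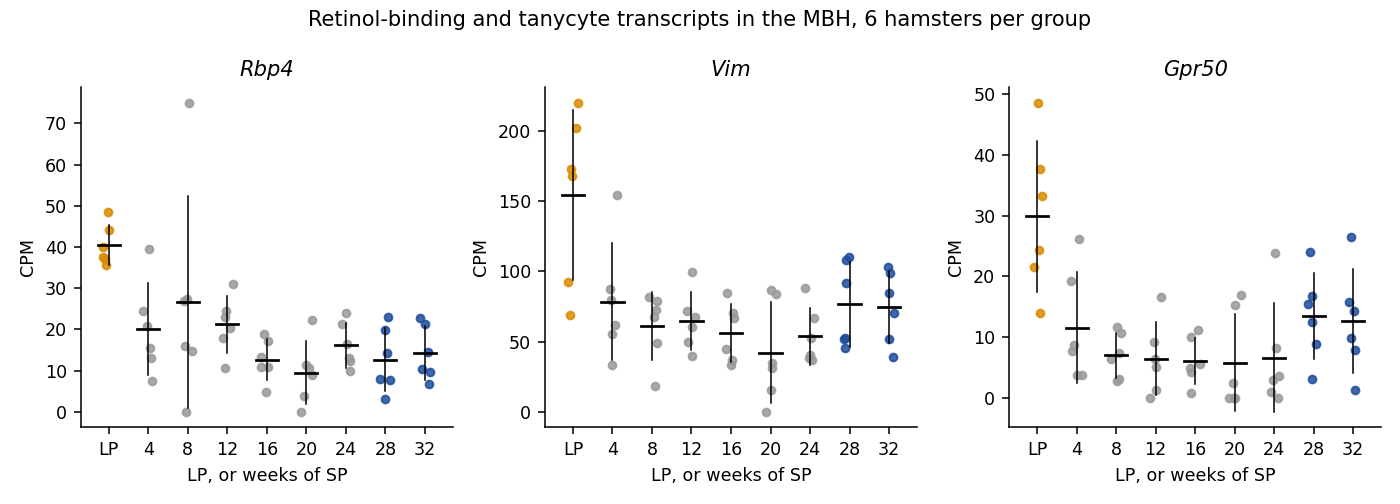
Levels of Rbp4, Vim and Gpr50 in each MBH library in CPM, drawn as in the plot of pars tuberalis transcripts. The 12 libraries of 28 and 32 weeks lie between 3.12 and 23.1 CPM for Rbp4, all under the lowest LP library at 35.7 CPM.

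Of the 30 genes on the tanycyte and retinoid list, 15 passed the filter on low counts. None passed the FDR in the edgeR test of summed isoforms. Of these 15, 12 (80.0%) had a log2 fold change below 0, against 52.3% of all genes that passed the filter, and the median was -0.50 against -0.02. Of the 15, 4 were lower and 0 higher at an unadjusted p under 0.05, Rbp4, Vim and Gpr50 among the 4. That is 26.7% of the members that passed the filter, against 2.64% of all genes that did (127 lower and 116 higher of 9221). Members and lists were chosen with earlier results of these data known, so these shares are no separate evidence about the list. The retinaldehyde dehydrogenase Aldh1a1 had -0.60 (SE 0.42) and the retinoic acid receptor Rara -1.11 (SE 0.79), while the tanycyte regulator Lhx2 had 1.13 (SE 0.72) and the retinoic acid-binding protein Crabp1 0.39 (SE 0.48). The summed markers of ependyma and choroid plexus, cells that line the same ventricle, ranged from 95.5 to 140.8 CPM in LP and from 47.8 to 134.7 CPM in late SP. Those of astrocytes, which share Vim, ranged from 875 to 1639 CPM and from 432 to 1815 CPM. The part of cell composition in the tanycyte values was not tested.

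Which of these genes passed depended on how isoforms were counted, on the test and on the filter. The deposited tables give a row per isoform, and reads that fit several isoforms recur in several rows. With only the highest isoform of each gene, which holds 30.1% of the summed counts, the common dispersion in the edgeR fit fell from 0.406 to 0.0729, and 32 genes passed the FDR, 9 higher and 23 lower. With the filter on low counts added, 3 genes passed, among them Tshb and Rbp4 (log2 fold change -1.60, SE 0.29, edgeR adjusted p = 0.00137). DESeq2 also called Tshb and Rbp4, from the highest isoform (adjusted p = 0.0165 for Rbp4) and from summed isoforms (0.0593). Across these fits the log2 fold change of Rbp4 ran from -1.64 to -1.59. Cga, Vim and Gpr50 were called with the highest isoform and no filter (edgeR adjusted p = 2.48e-28, 2.92e-05 and 0.000178), and not once the filter was applied (0.348, 0.153 and 0.772). In the fit without the filter, genes of the same abundance were given the same spread.

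**Figure D3:**
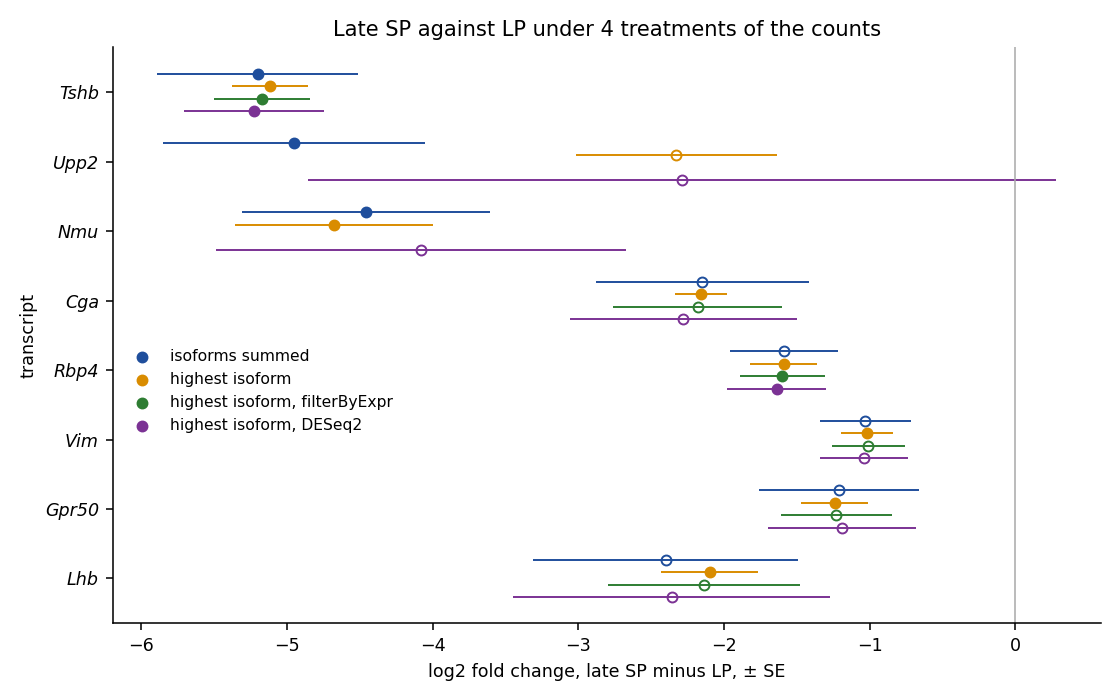
Log2 fold change of late SP against LP with its SE for 8 transcripts, from summed isoforms (edgeR, blue) and from the highest isoform with edgeR (orange), with edgeR after the filter on low counts (green) and with DESeq2 (purple). Filled points pass an FDR of 0.1 and open points do not. Rbp4 stays between -1.59 and -1.64 and is filled in all treatments but the summed one, and Upp2 and Nmu have no point after the filter.

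None of the thyroid hormone genes downstream of thyrotropin passed the FDR. Of 26 genes on the thyroid axis list, 15 passed the filter, none had an unadjusted p under 0.05, and their median log2 fold change was 0.01. At the 2.64% of all genes past the filter that had such a p, a count of 0 says nothing particular to this list. Dio3, the deiodinase that inactivates thyroid hormone, had 0 counts in all 18 libraries, which allows up to 0.285 CPM over the LP group and 0.129 CPM over late SP. Dio2, the activating deiodinase, had means of 1.79 ± 0.968 CPM in LP (SD, n = 6) and 2.97 ± 1.68 CPM in late SP (SD, n = 12), with a log2 fold change of 0.62 (SE 0.56), and was under the filter. Crym, which binds thyroid hormone in the cytosol, had 15.4 ± 6.40 and 22.3 ± 6.90 CPM (log2 fold change 0.51, SE 0.36). The receptor Thra had 0.48 (SE 0.28) and its partner Rxra 0.90 (SE 0.51). The highest of these changes, that of Rxra, had an edgeR adjusted p of 0.974.

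The neuropeptides of the arcuate nucleus did not pass the FDR. Sst averaged 44.2 ± 17.3 CPM in LP (SD, n = 6) and 50.6 ± 23 CPM in late SP (SD, n = 12). The orexigenic peptides had log2 fold changes of 0.21 (SE 0.59) for Npy and -0.01 (SE 0.55) for Agrp, and the anorexigenic precursors had -0.31 (SE 0.42) for Pomc and -0.24 (SE 0.28) for Cartpt. Vgf, the precursor of energy-balance peptides, had 0.73 (SE 0.66). Among 36 energy-balance genes 22 passed the filter and none passed the FDR, with a median log2 fold change of -0.06. Of those 22, 1 (4.55%) had an unadjusted p under 0.05, against 2.64% of all genes past the filter. It was Scg2, a granin, at -0.52 (SE 0.23, edgeR adjusted p = 0.944), with means of 137 ± 16.0 and 95.6 ± 27.7 CPM. 

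Among reproductive genes, 9 of 18 passed the filter and none passed the FDR. Kiss1, the kisspeptin precursor that drives gonadotropin-releasing hormone neurons, had a log2 fold change of -2.06 (SE 0.95, edgeR adjusted p = 0.97), which combined 0.35 at 28 weeks with -4.48 at 32 weeks. It was read in 1 library at 32 weeks, at 1.21 CPM, and at up to 14.4 CPM at 28 weeks, and the difference between these weeks did not pass the FDR. The clock list had 17 of 23 members past the filter. Cry1, a repressor of the clock, averaged 4.97 ± 3.23 CPM in LP (SD, n = 6) and 1.45 ± 1.61 CPM in late SP (SD, n = 12), with a log2 fold change of -1.78 (SE 0.78, edgeR adjusted p = 0.944). Per3 had 3.07 (SE 1.45, edgeR adjusted p = 0.974) and was read in 1 LP library only. Collection 2 to 4 h after lights on followed a shorter night in LP than in SP. For clock genes, time since lights off and photoperiod therefore cannot be told apart. Dnmt1, the maintenance DNA methyltransferase, had 12.0 ± 7.59 and 24.8 ± 8.82 CPM in LP and late SP (log2 fold change 0.97, SE 0.49, edgeR adjusted p = 0.974).

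**Figure D4:**
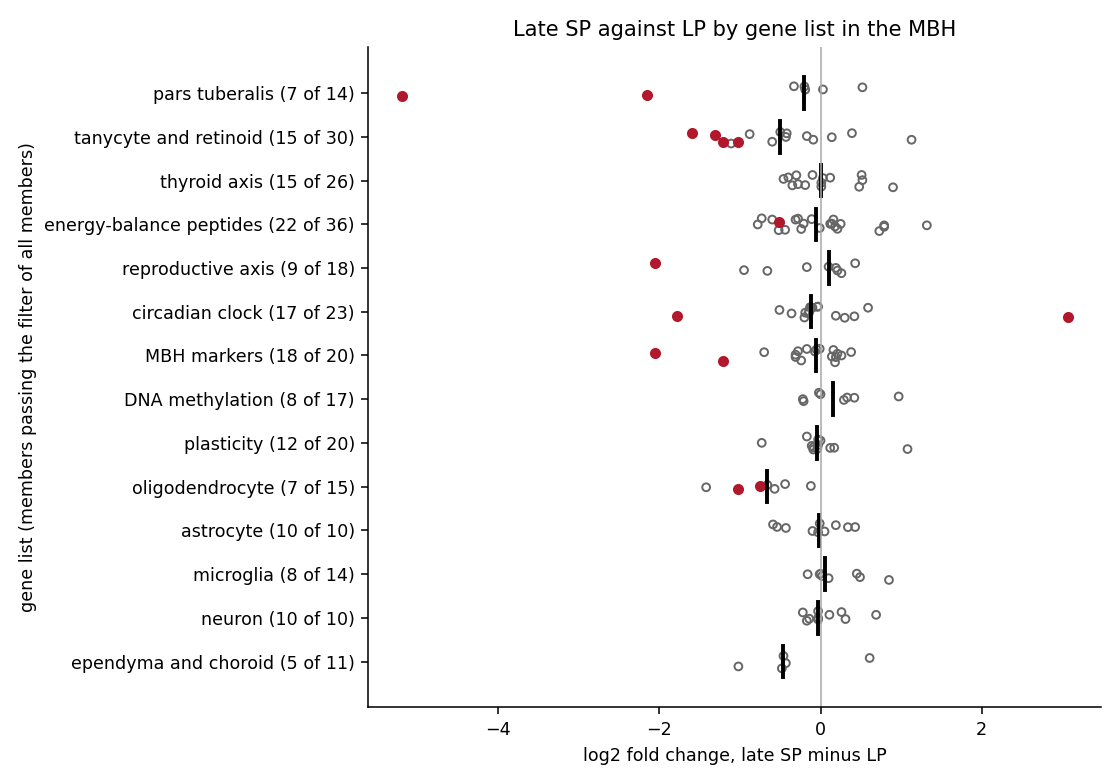
Log2 fold change of late SP against LP for the members of 14 gene lists that passed the filter on low counts, each point a gene and each bar the median of its list. Red points have an unadjusted p under 0.05. The tanycyte and retinoid list has its median at -0.50 and the thyroid axis list at 0.01.

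No gene was called higher in late SP. After the filter on low counts, the 8 genes with the smallest p in that direction were Lrrc14, Serac1, Myh14, Abi3bp, Zfp142, Adgrf5, Cops7a and Sytl5, with edgeR adjusted p from 0.356 to 0.607. Cops7a, a subunit of the COP9 signalosome, was the one read in every library, at 49 ± 22.5 CPM in LP (SD, n = 6) and 87.2 ± 18.7 CPM in late SP (SD, n = 12). Serac1, a lipid-remodelling protein of mitochondria, had 4.22 ± 4.55 and 21.7 ± 14.1 CPM in the same groups. With only the highest isoform of each gene and no filter, 9 genes were called higher. Serac1 was among them (log2 fold change 2.1, SE 0.54, edgeR adjusted p = 0.0625). Lrrc14 was read in 2 of 6 LP libraries and 9 of 12 late SP libraries, at 0.242 ± 0.385 and 6.37 ± 5.38 CPM. Myh14 and Abi3bp were read in no LP library and in 7 of 12 late SP libraries each. Pooled and set against a floor of 3 counts over the LP group, their summed isoforms were 16.7-fold and 54.8-fold higher in late SP. These counts sum 10 isoform rows for Myh14 and 40 for Abi3bp and can repeat a read, so the folds are not lower bounds. Abi3bp, Sytl5 and Myh14 were at 0 in some late SP libraries and reached 96.8, 41.1 and 24.2 CPM in others.

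In the other direction, the 8 genes with the smallest p after the filter included Tshb, Rbp4, Vim, Tuba8, Tiam2, Esrrg and Pter. Pter, a phosphotriesterase-related protein, was read in all 6 LP libraries at 1.34 to 10.4 CPM and in 6 of 12 late SP libraries at up to 3.58 CPM (log2 fold change -2.81, SE 0.90, edgeR adjusted p = 0.573). Tuba8 was at 66.1 CPM in LP replicate 3 and had a log2 fold change of 0.46 without it, and Esrrg was high in 2 LP libraries, at 54.8 and 91.3 CPM, and in 1 late SP library at 37.01 CPM. Igf1, on the growth factor list, had -2.81 (SE 1.08, edgeR adjusted p = 0.804), and -1.30 without LP replicate 4, where it stood at 80.6 CPM. The myelin gene Cnp had -0.75 (SE 0.34, edgeR adjusted p = 0.944), and the oligodendrocyte markers summed to 400 to 2729 CPM in LP and 285 to 1901 CPM in late SP.

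Against the middle of the SP interval, at 12, 16 and 20 weeks, Tshb was higher in late SP. It was read in 6 of the 18 libraries from those weeks, at 1.14 ± 2.17 CPM (SD, n = 18), and in 10 of 12 late SP libraries. LP cancels from the difference between late SP and these weeks, though its libraries enter the shared estimate of the spread. The test of that difference gave a log2 fold change of 3.36 for Tshb (SE 0.68, edgeR adjusted p = 0.0449), 1 of 4 genes called (0.0199% of 20116). The others were Arntl2, a clock factor (log2 fold change 6.08), Ppp1r1b (1.41) and Dhrs7c (-3.26). DESeq2 gave 3.25 (SE 0.80, adjusted p = 0.193), so DESeq2 did not call it. Rbp4 was at 14.5 ± 8.01 CPM in the middle weeks, and its late minus middle log2 fold change was -0.12 (SE 0.29). Vim had 0.42 (SE 0.24), Gpr50 0.94 (SE 0.44) and Cga 1.26 (SE 0.57), none of which passed the FDR. The middle weeks against LP gave 41 calls (0.204% of 20116), of which 40 were lower (0.199%). Side by side, with LP shared by both comparisons, the log2 fold changes against LP in the middle weeks and in late SP were -8.56 and -5.20 for Tshb, -3.41 and -2.15 for Cga, and -1.47 and -1.59 for Rbp4. The middle weeks include 1 library with 5996 counts. Another shallow library, 24 weeks replicate 1 with 71577 counts, is in neither group and enters only the shared fit. Without both libraries, the late minus middle log2 fold change of Tshb was 3.39 (SE 0.70, edgeR adjusted p = 0.0679).

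In the dorsomedial hypothalamus (DMH) of the same 18 hamsters Cga had no count, and Tshb was read in 2 LP libraries at up to 3.58 CPM. Upp2 and Nmu each had 1 count there, in late SP, and none in LP. The DMH libraries were uneven, with 787 to 15873 genes read in late SP. In the pituitary gland of these hamsters, Tshb ranged from 0 to 616 CPM in LP and from 0 to 395 CPM in late SP, and Cga from 1120 to 3210 and from 1310 to 2840 CPM. The pituitary groups overlapped for both genes. The pituitary libraries were shallow, with 40520 to 230630 counts in LP and 50729 to 523544 in late SP, and Tshb in LP rested on 50 counts in 3 of 6 libraries. Levels were normalised within each tissue and are not compared across tissues.

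**Figure D5:**
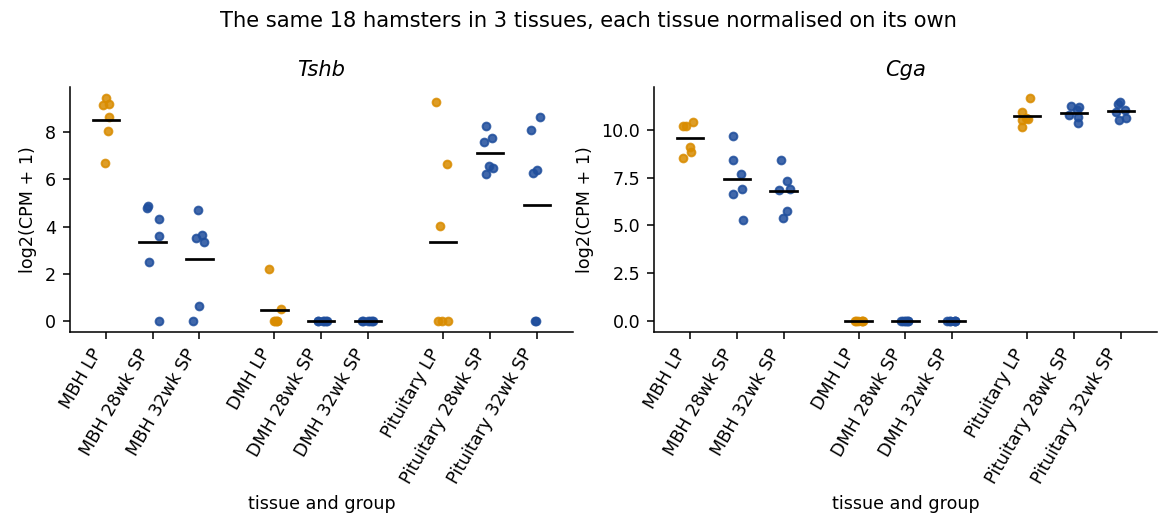
Levels of Tshb and Cga in MBH, DMH and pituitary libraries from the same animals on a log2(CPM + 1) axis, each tissue normalised on its own, with LP in orange, 28 and 32 weeks of SP in blue and a bar at each mean of the log2 values. The late SP libraries lie under the LP libraries for Tshb in the MBH, whereas in the pituitary gland the groups overlap.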

How the data were processed

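RNA of microdissected MBH was sequenced as nanopore PCR-cDNA. The authors used guppy 4.2.1 for base calling, Porechop 0.2.4 for adapters, Filtlong 0.2.0 for read quality, Minimap2 with the mouse assembly GRCm39, Salmon 0.14.2 for counts per isoform and EdgeR 3.24.3 to drop low transcripts. The deposited tables hold these estimated counts, not normalized, one column per hamster. Alignment of hamster reads to mouse can lose or misassign divergent transcripts. Isoform rows were summed per gene symbol and rounded, giving 20116 genes with a count. edgeR 4.0.16 (quasi-likelihood, edgeR 3 form, TMM, no filter) was fitted to all 54 MBH libraries in 9 groups. The contrast was the mean of the 28 and 32 weeks coefficients minus LP, Benjamini-Hochberg adjusted, FDR under 0.1. CPM are TMM-normalized. The filter on low counts is filterByExpr (9221 genes). A test of the MBH minus DMH difference was run but is not given, since the genes were chosen on the MBH and were at or near 0 in the DMH. The fit was also run on simulated counts, and the outcome is not reported here. Those counts hold no repeated reads and no changed gene under the filter, where Upp2 and Nmu lie.

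Named genes were every called gene, the 8 with the smallest p in each direction after the filter, up to 4 members of each list, and genes of the pars tuberalis, thyroid axis and the study. Genes named as examples or for a low count (Aldh1a1, Rara, Lhx2, Crabp1) were chosen after values were seen. Exact permutation tests of mean CPM were 2-sided and unadjusted over 130 genes. Depth was 371980 to 13208361 counts a library. Labels do not say more of the replicates than that each is a hamster. Alternatives were other scalings, filters, tools, isoform treatments, libraries and a replicate block. Members and lists were chosen with earlier results of these data known. Libraries of different groups with the same replicate number came from different hamsters. PVN tables were not used here, and some genes that met these rules are not reported here. DESeq2 1.42.0 was an alternative.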

Additional observations from a re-analysis of the deposited data

Results flagged for a closer look

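A library stood away from the other 5 of its group in 27 of 128 groups of 6 checked for the genes and library measures printed above. Chance marks about 1 in 20 groups of normally distributed values. That rate need not hold for CPM or totals, which can be skewed, or for low counts: in 5 of the 27 the other 5 libraries were at 0. Among the pars tuberalis genes a library stood apart for Upp2 at 28 weeks (0.3538 CPM against 0), Nmu at 32 weeks (1.21 CPM) and Eya3 in LP (28.21 CPM). Among genes with higher values in late SP one did for Cops7a in LP (89.69 CPM), Myh14 at 28 weeks (15.23 CPM), Abi3bp at 28 (43.97 CPM) and 32 weeks (96.76 CPM), Zfp142 at 28 weeks (15.42 CPM), Adgrf5 in LP (0.5793 CPM), and Sytl5 in LP (0.4262 CPM) and at 28 weeks (10.44 CPM). Among genes with lower values one did for Tuba8 in LP (66.1 CPM) and at 28 weeks (9.251 CPM), Esrrg at 28 weeks (37.01 CPM), Igf1 in LP (80.61 CPM) and at 28 weeks (30.84 CPM), and Lhb in LP (205.2 CPM). For clock, receptor and peptide genes one did for Kiss1 at 32 weeks (1.21 CPM), Cry1 at 32 weeks (4.714 CPM), Per3 in LP (1.739 CPM), at 28 weeks (15.42 CPM) and at 32 weeks (7.532 CPM), Rxra at 32 weeks (17.85 CPM) and Pomc at 32 weeks (332.6 CPM). The lowest library stood apart for Thra (6.443 CPM) and Sst (5.155 CPM) at 28 weeks, both in replicate 2. The total of 28 weeks replicate 6 stood apart at 13208361 counts.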

How the results depend on the processing

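In late SP against LP, Tshb kept its call and direction under every alternative run, with log2 fold changes from -5.56 to -4.77. The count of called genes, 3, was 1 with the filter on low counts, 1 with the 18 libraries alone, 1 with 28 weeks alone, 1 with 32 weeks alone, 32 with the highest isoform and 6 without libraries in which Gm32262 exceeded 50%. The Gm32262 limit was chosen after seeing the data, as were the Gm32262 covariate, the limit of 100000 counts and the highest isoform with the filter or with DESeq2. Leaving out 1 library gave 1 to 7 calls: 1 without LP replicate 2, LP replicate 6 or 28 weeks replicate 6, 5 without LP replicate 1 and 7 without LP replicate 5. For 28 weeks alone edgeR 4 called 2 genes and DESeq2 0, so that Tshb was not called (326 at an unadjusted p under 0.05). Late SP against the middle weeks gave 2 calls with the filter. Upp2 and Nmu each lost their call under 11 alternatives, with adjusted p up to 1. The Nmu difference in mean CPM ranged from -3.14 to -1.86 with 1 library left out, and its exact permutation p rose to 0.0546 without LP replicate 2, 5 or 6. The thyroid axis median was -0.30 without the Gm32262-rich libraries, where Esrrg was at 1.54 and Lhb at 0.18. Kiss1 was at 0.35 with 28 weeks alone, and Tuba8 ranged from -2.64 to 0.46 with 1 library left out. The causes were not tested. With the replicate block, late SP against LP gave 4 calls, Rbp4 added, and late SP against the middle weeks gave 3, Tshb lost (edgeR adjusted p = 0.102). The block left the 28 and 32 weeks counts at 1 each and their difference at 0. Correlations of the 18 same-numbered pairs of libraries ran from -0.056 to 0.14, and the labels name nothing these libraries share but the number. Whether they shared a sequencing run was not tested. Depth limits the low genes: 1 count was worth up to 1.34 CPM.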
